A study of Homo sapiens with 6 samples.

Results

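A set of 8 genes that encode replacement histone variants was followed in the human lung cancer line 95D in 3 culture media. The 8 genes were chosen by symbol: H1-10, H2AX, H2AZ1, H2AZ2, H3-3A, H3-3B, MACROH2A1 and MACROH2A2. They are 8 of 59609 gene names measured, and all 8 were among the 16600 genes that reached at least 1 FPKM in at least 1 library and were tested. Wild-type cells were seeded in complete medium for 24 h and then kept for 48 h in glutamine-free medium with 10% dialyzed serum, in glucose-free medium with 10% dialyzed serum, or in control medium with 10% fetal bovine serum. Glutamine is the most abundant amino acid of the medium and glucose its main sugar. The labels name dialyzed serum for the deprived media only, so the missing nutrient and the change of serum cannot be told apart in a comparison with control, whereas both deprived media held it. The comparisons rest on 1 library of glutamine deprivation, 2 of glucose deprivation and 2 of control. The labels do not state whether replicates are separate cultures, and p-values rest on a spread between libraries that may be technical.

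Most histones are made in S phase from clustered genes whose mRNAs end in a stem-loop instead of a poly(A) tail. Replacement variants are made outside S phase as well, mostly from single genes with polyadenylated mRNAs, and enter nucleosomes without DNA replication. H2A.Z (H2AZ1 and H2AZ2) marks promoters and enhancers, H3.3 (H3-3A and H3-3B, which encode the same protein) is laid down at active genes and at telomeres, and H2AX is the variant that is phosphorylated around DNA breaks. MacroH2A (MACROH2A1 and MACROH2A2) carries a large extra domain and is abundant on silent chromatin, and H1-10 is a linker histone outside the histone clusters. Ribosomal RNA had been removed before sequencing and no poly(A) selection is named, so mRNAs of both kinds could be read.

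Inferred depth was 34530000 reads in the glutamine-deprived library, 36760000 and 35130000 in the glucose-deprived libraries and 35470000 and 48930000 in control. The cells carried all 3 mesenchymal markers (summed level 98.4 FPKM in glutamine deprivation, 147 and 162 in glucose deprivation, 87.8 and 86.5 in control). Of 6 epithelial markers KRT8 and KRT18 reached 1 FPKM (summed level 22.3, then 20.9 and 24.8, then 26.6 and 25.4 FPKM in the same order of libraries), while EPCAM, CDH1, KRT7 and KRT19 did not. NKX2-1 reached it among 4 lung lineage markers, and COL1A1 and SYP among 16 markers of other cell types (summed level 7.07 FPKM in glutamine deprivation, 5.52 and 6.46 in glucose deprivation, 5.25 and 4.10 in control). NKX2-1 stood at 1.17 FPKM in glutamine deprivation, 0.72 and 0.71 in glucose deprivation and 1.07 and 1.09 in control. COL1A1 reached 1 FPKM in the glutamine-deprived library alone (1.83 FPKM), and SYP in all libraries. The part of these shifts in the results was not tested.

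The sequences that bear most on the measurements are those of the H3.3 genes. H3-3A lies at chr1:226061851-226072001 on the plus strand and H3-3B at chr17:75776434-75785893 on the minus strand (GRCh38, GENCODE release 29, which names them H3F3A and H3F3B). Their coding sequences differ at 88 of 411 bases and in 79 of 137 codons, although the protein is the same, and the longest stretch they share is 14 bases. H3-3A has near copies elsewhere. The processed pseudogene H3P6 at chr2:174719908-174720318, plus strand, holds the whole H3-3A coding sequence with 0 mismatches, and H3P16 at chr4:139698144-139698554, minus strand, holds it with 3 mismatches (99.3% identity). Coding bases 1 to 300 of H3-3A, spliced, are shown in lower case and are also those of H3P6. In the next lines capitals mark the bases at which H3P16 (1 in this stretch) and H3-3B (65) differ from it.
H3-3A and H3P6: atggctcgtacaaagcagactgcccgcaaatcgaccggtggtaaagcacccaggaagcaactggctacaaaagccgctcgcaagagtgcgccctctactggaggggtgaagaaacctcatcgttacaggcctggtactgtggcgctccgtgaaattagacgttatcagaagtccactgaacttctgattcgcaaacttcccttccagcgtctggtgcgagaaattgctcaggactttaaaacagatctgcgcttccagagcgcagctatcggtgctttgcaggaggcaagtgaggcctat
H3P16: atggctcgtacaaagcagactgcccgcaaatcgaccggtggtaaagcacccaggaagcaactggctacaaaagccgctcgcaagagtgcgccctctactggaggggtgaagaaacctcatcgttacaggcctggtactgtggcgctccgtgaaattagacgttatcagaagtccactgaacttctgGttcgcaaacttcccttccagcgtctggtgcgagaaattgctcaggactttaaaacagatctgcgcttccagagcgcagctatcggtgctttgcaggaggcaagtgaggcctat
H3-3B: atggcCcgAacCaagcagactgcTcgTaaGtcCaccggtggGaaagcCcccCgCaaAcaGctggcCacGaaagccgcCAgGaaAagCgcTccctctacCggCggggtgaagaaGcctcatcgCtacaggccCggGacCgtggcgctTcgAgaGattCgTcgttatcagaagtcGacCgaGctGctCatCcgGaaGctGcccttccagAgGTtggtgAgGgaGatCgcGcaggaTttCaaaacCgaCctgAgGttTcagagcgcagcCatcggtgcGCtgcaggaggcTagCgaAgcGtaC

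H2AZ1 (chr4:99948086-99950388, minus strand) and H2AZ2 (chr7:44826791-44848083, minus strand) encode proteins that are nearly alike, from coding sequences that differ at 76 of 387 bases, with a longest shared stretch of 23 bases. Their first 120 coding bases show how the genes are told apart in reads. Capitals in the second line mark differences from the first.
H2AZ1: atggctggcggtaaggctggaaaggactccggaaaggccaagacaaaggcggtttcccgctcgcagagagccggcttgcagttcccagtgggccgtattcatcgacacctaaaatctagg
H2AZ2: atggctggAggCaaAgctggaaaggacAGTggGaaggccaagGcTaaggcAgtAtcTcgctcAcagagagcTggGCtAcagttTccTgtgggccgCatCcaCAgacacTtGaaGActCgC

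The expression of the variants was set against control in each deprivation and between the deprivations. In glutamine deprivation H2AZ1, H3-3B, H2AX, H3-3A, H2AZ2 and MACROH2A2 were lower than in control and H1-10 was higher. In glucose deprivation H3-3B, H2AZ1, H1-10, H3-3A and H2AZ2 were lower and no variant was higher. Of the 8 genes, 7 passed an adjusted p of 0.05 (limma, Benjamini-Hochberg over all genes tested) in glutamine deprivation, 1 higher and 6 lower, where 51.0% of all genes tested passed, 24.8% higher and 26.3% lower. In glucose deprivation 5 of 8 passed, 0 higher and 5 lower, where 54.7% of all genes passed, 26.5% higher and 28.1% lower. Between glutamine and glucose deprivation 3 of 8 passed, 1 higher and 2 lower, where 44.5% of all genes passed, 22.5% higher and 22.0% lower. Counted in either direction, the share of the 8 genes that passed was above the background in glutamine deprivation and near or below it in the other comparisons. Counted as lower, it was above the background in both comparisons with control. By mean level, however, the 8 genes lay above 79.3% to 98.9% of all genes tested. They were also chosen with earlier results of these data known. What level and choice add to these shares was not tested. The median log2 fold change of the 8 genes was -0.32 in glutamine deprivation against control, where that of all genes was 0.05, and -0.34 in glucose deprivation against control, where that of all genes was 0.03. Between the deprivations these medians were -0.10 and 0.01. Both comparisons with control share the control libraries.

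These counts depend on how libraries were scaled. When each library was scaled to its total, the median of all genes moved to 0.30 in glutamine deprivation, 0.11 in glucose deprivation and 0.19 between them, and 91.1%, 68.1% and 85.5% of calls were higher, against 48.5%, 48.6% and 50.5% here. Under that scaling 2, 3 and 1 of the 8 genes passed, in that order of comparisons, where 36.6%, 32.5% and 25.2% of all genes did, so the share of the 8 in glutamine deprivation was then below the background. Without control replicate 2, 3 of 8 passed in glutamine deprivation, where 33.2% of all genes did. H2AZ1, H3-3A and H3-3B were lower than control in both deprivations under all 4 scalings tried. H1-10 was higher in glutamine and lower in glucose deprivation under all 4 too, while H2AX was lower in glutamine deprivation and H2AZ2 in glucose deprivation.

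**Figure D1:**
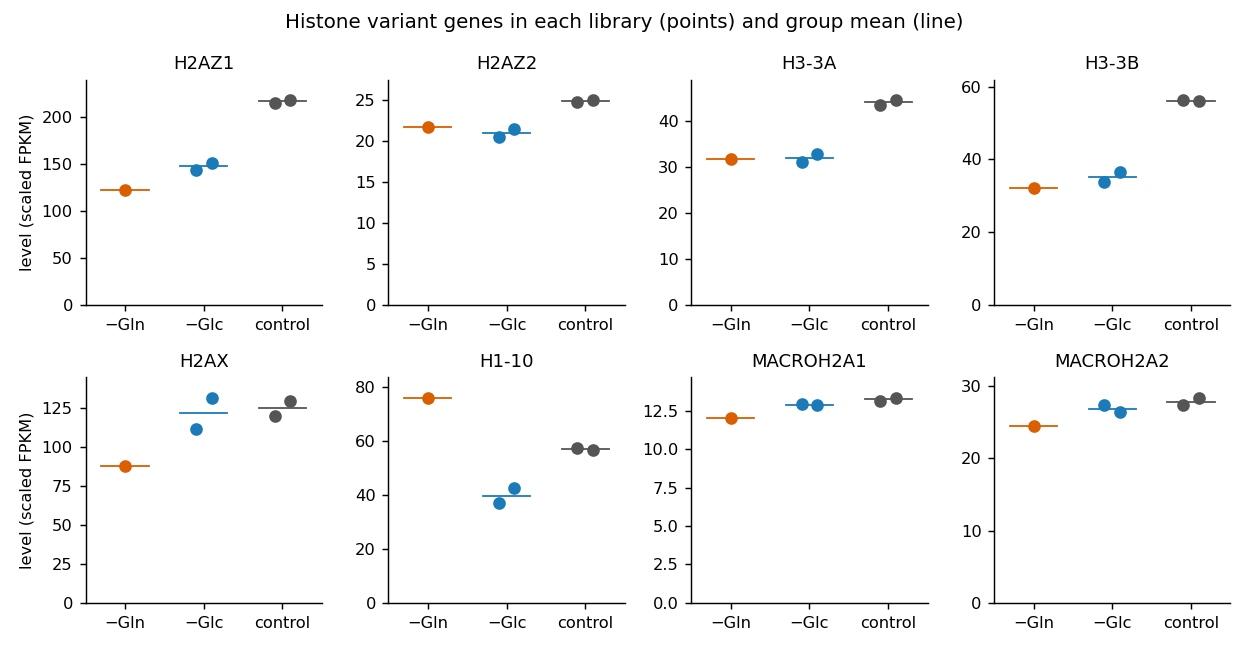
Level of each variant gene (scaled FPKM, y axis from 0, a panel per gene) in the library of glutamine deprivation (−Gln), the 2 of glucose deprivation (−Glc) and the 2 of control. Points are libraries and lines are group means. H2AZ1, H3-3A and H3-3B lie lower in both deprivations than in control, and H1-10 is highest in glutamine deprivation and lowest in glucose deprivation.

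By mean over the 5 libraries the levels ran in the order H2AZ1 (170 FPKM), H2AX (116), H1-10 (53.9), H3-3B (42.9), H3-3A (36.7), MACROH2A2 (26.7), H2AZ2 (22.7) and MACROH2A1 (12.8). FPKM are fragments relative to transcript length and to the mapped fragments of a library, so levels of different genes can be compared, within the limits of the gene lengths used. All levels here are FPKM divided by a scaling factor per library. The lengths the authors used are not given in the sources used here. Places in this order are therefore uncertain where the exons of a gene cover more bases than its transcript. Exons in GENCODE cover 17730 bases in all for MACROH2A1, against 2789 in the transcript used here. The same lengths were 4749 and 752 bases for H2AZ2 and 3146 and 1308 for H3-3A. They were 6134 and 2705 for H3-3B and 2303 and 979 for H2AZ1, and equal for H1-10, H2AX and MACROH2A2. Neighbours in that order were not apart in every medium. H3-3A and H3-3B stood at 31.8 and 32.3 FPKM in the glutamine-deprived library, and H1-10 and H3-3B at 56.0 to 57.3 FPKM in control. With the GENCODE exon lengths each gene rested on 1792 to 23813 inferred reads a library, a counting error of 0.648% to 2.36%. With lengths nearer to the transcripts these reads would be fewer and the counting error larger, except for H1-10, H2AX and MACROH2A2.

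Both H2A.Z genes were lower in both deprivations, H2AZ1 with the larger fold changes; under scaling to the total H2AZ2 turned in glutamine deprivation. H2AZ1 stood at 122 FPKM in the glutamine-deprived library, at 143 and 151 FPKM in glucose deprivation and at 215 and 218 FPKM in control. The groups did not overlap, and glutamine deprivation was lowest. H2AZ1 fell by 43.6% in glutamine deprivation (log2 fold change -0.82 ± 0.05 SE, limma adjusted p = 4.08e-05). In glucose deprivation, at 147 ± 5.51 FPKM against 216 ± 1.72 FPKM in control (SD, n = 2 each), it fell by 31.9% (-0.55 ± 0.04, adjusted p = 4.63e-05). The gap between the deprivations also passed (-0.27 ± 0.05, adjusted p = 0.00504), but not with values as deposited (-0.15, adjusted p = 0.062) or with libraries scaled to their totals (-0.067, adjusted p = 0.855). In bulk RNA, fewer cells that express a gene and less of its RNA per cell cannot be told apart.

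H2AZ2, the less abundant H2A.Z gene, stood at 21.7 FPKM in glutamine deprivation, at 20.5 and 21.5 FPKM in glucose deprivation and at 24.8 and 25.0 FPKM in control. All deprived libraries were below both controls, by a small margin. Its log2 fold change was -0.19 ± 0.05 in glutamine deprivation (limma adjusted p = 0.0174) and -0.23 ± 0.04 in glucose deprivation (adjusted p = 0.00246). The call in glutamine deprivation was lost in 8 of 15 alternatives, among them values as deposited, upper-quartile scaling, scaling to the total (where the value was 0.11) and the fits without control replicate 1 (adjusted p = 0.0942) or 2 (0.108). The call in glucose deprivation was lost with scaling to the total (-0.12, adjusted p = 0.573). No difference between the deprivations was called (0.04, 95% interval -0.08 to 0.16, adjusted p = 0.545).

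A ratio of both genes within a library does not depend on its scaling. The size of the ratio does depend on the gene lengths used, which are uncertain for both genes. H2AZ1 over H2AZ2 was 5.63 in the glutamine-deprived library, 6.98 and 7.03 in glucose deprivation and 8.68 and 8.72 in control. The 3 media were fully apart, with SDs of 0.0318 in glucose deprivation and 0.0283 in control. The ratio differed from control by -35.3% in glutamine and -19.5% in glucose deprivation. With 1 or 2 libraries against 2, the smallest two-sided p of an exact permutation test is 0.333, so no such test can pass and these ratios are given as values. The same limit holds wherever groups of a gene are said not to overlap. The H2A.Z sum was 144 FPKM in glutamine deprivation, 164 and 173 FPKM in glucose deprivation and 240 and 242 FPKM in control, most of it H2AZ1.

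**Figure D2:**
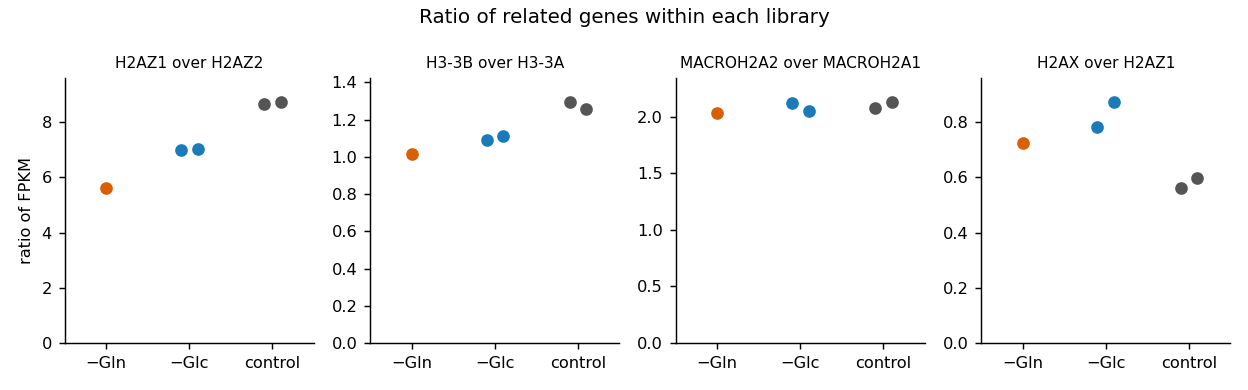
Ratio of the FPKM of related genes within each library (y axis from 0), for glutamine deprivation (−Gln, 1 library), glucose deprivation (−Glc, 2) and control (2); points are libraries. H2AZ1 over H2AZ2 and H3-3B over H3-3A are lowest in glutamine deprivation and highest in control, H2AX over H2AZ1 is lowest in control, and the macroH2A ratio does not follow the media.

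The factors that exchange H2A.Z did not move one way. Of 14 genes for its deposition and removal, 3 rose and 9 fell in glutamine deprivation (median log2 fold change -0.33), and 5 rose and 7 fell in glucose deprivation (median -0.03); scaled to the total, 3 rose and 2 fell in glutamine (median -0.03) and 5 rose and 2 fell in glucose deprivation (median 0.07). Between the deprivations 3 were higher and 7 lower in glutamine deprivation (median -0.21), against 3 higher and 1 lower (median -0.03) when scaled to the total. For this and later lists, 24.8% of all genes tested rose and 26.3% fell in glutamine and 26.5% and 28.1% in glucose deprivation. Between the deprivations 22.5% were higher and 22.0% lower. Scaled to the total, 36.6%, 32.5% and 25.2% of all genes passed in these comparisons, and 91.1%, 68.1% and 85.5% of those calls were higher. Among the 14 genes, those that rose most encode the large ATPases that put H2A.Z into nucleosomes. SRCAP stood at 20.5 FPKM in glutamine deprivation, 12.6 and 11.2 FPKM in glucose deprivation and 5.89 and 7.03 FPKM in control (log2 fold change 1.53 ± 0.10, limma adjusted p = 3.93e-05, in glutamine and 0.79 ± 0.08, adjusted p = 0.000139, in glucose deprivation). EP400, the ATPase of the TIP60 complex, stood at 7.30 FPKM, then at 5.34 and 4.64 FPKM, against 2.36 and 2.37 FPKM in control, in the same order of media. TRRAP, the scaffold of that complex, rose by 1.01 and 0.40 on the log2 scale.

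Some smaller subunits and ANP32E fell. ANP32E, a chaperone that takes H2A.Z out of nucleosomes, stood at 33.2 FPKM in glutamine deprivation, 46.3 and 42.9 FPKM in glucose deprivation and 60.2 and 60.0 FPKM in control. Its log2 fold change was -0.84 ± 0.06 in glutamine (limma adjusted p = 4.75e-05) and -0.42 ± 0.05 in glucose deprivation (adjusted p = 0.000223). The 3 media thus lay in the same order for ANP32E as for H2AZ1. ACTR6, a subunit of the SRCAP complex, fell by 0.67 and 0.55 on the log2 scale in glutamine and glucose deprivation, ACTL6A, an actin-related subunit of several remodellers, by 0.76 and 0.43, and the ATPase gene RUVBL1 by 0.54 and 0.53. The deprivations differed for 3 further subunits. DMAP1 was called in glucose deprivation alone (0.48, against 0.00 in glutamine deprivation), and the acetyltransferase KAT5 likewise (0.32, against -0.16). YEATS4 was called in glutamine deprivation (-0.49) and not in glucose deprivation (0.16). Between glutamine and glucose deprivation all 3 differed (DMAP1 -0.47, KAT5 -0.48 and YEATS4 -0.65, adjusted p of 0.000966, 0.000912 and 0.000472). Scaled to the total, only YEATS4 passed of these 3 (-0.45, adjusted p = 0.0473; DMAP1 -0.30, adjusted p = 0.213; KAT5 -0.29, adjusted p = 0.244). That scaling also ended the calls against control of ACTR6, RUVBL1 and YEATS4 in glutamine and of ANP32E and ACTL6A in glucose deprivation, and kept those of SRCAP, EP400 and TRRAP.

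Both H3.3 genes were lower in both deprivations, H3-3B with the larger fold changes. H3-3B stood at 32.3 FPKM in glutamine deprivation, at 33.7 and 36.4 FPKM in glucose deprivation and at 56.3 and 56.0 FPKM in control. Every deprived library was far below both controls. H3-3B fell by 42.5% in glutamine (log2 fold change -0.78 ± 0.06, limma adjusted p = 5.57e-05) and fell by 37.5% in glucose deprivation (-0.66 ± 0.05, adjusted p = 3.06e-05; 35.1 ± 1.91 FPKM against 56.1 ± 0.222 FPKM in control, SD, n = 2 each). No difference between the deprivations was called (-0.12, 95% interval -0.25 to 0.02, adjusted p = 0.142).

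H3-3A stood at 31.8 FPKM in glutamine deprivation, at 31.0 and 32.7 FPKM in glucose deprivation and at 43.5 and 44.5 FPKM in control. The deprivations overlapped and both lay below control. Its log2 fold change was -0.46 ± 0.05 in glutamine (limma adjusted p = 0.000346) and -0.46 ± 0.04 in glucose deprivation (adjusted p = 0.000118), and 0.00 in size between them (95% interval -0.13 to 0.13, adjusted p = 0.996). H3-3B over H3-3A was 1.01 in glutamine deprivation, 1.09 and 1.11 in glucose deprivation and 1.29 and 1.26 in control, lowest in the glutamine-deprived library and highest in control. With the reads of the H3-3A copies described next added to H3-3A, this ratio was 0.723 in glutamine deprivation. It was 0.752 and 0.780 in glucose deprivation and 0.892 and 0.897 in control. Which gene was the more abundant thus depends on the copies and on the gene lengths used, while the order of the media was the same. Together the H3.3 genes gave 64.1 FPKM in glutamine deprivation, 64.7 and 69.1 FPKM in glucose deprivation and 99.8 and 100.4 FPKM in control. Scaling to the total ended the call of H3-3A in both deprivations (-0.15, adjusted p = 0.569, in glutamine and -0.34, adjusted p = 0.0742, in glucose) and that of H3-3B in glutamine deprivation (-0.47, adjusted p = 0.0539).

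The level printed for H3-3A is uncertain because of its copies. Of 1159 windows of 150 bases, the read length, along the H3-3A transcript, 262 (22.6%) occur in another annotated transcript, and each of these 262 occurs in H3P6. Of the other variants only H2AZ2 had such windows, 4 of 603. The H3P6 row itself stood at 63.4 FPKM in glutamine deprivation, 71.7 and 72.1 FPKM in glucose deprivation and 102 and 93.0 FPKM in control, above H3-3A per length. The H3P16 row stood at 34.9, then 34.8 and 35.5, against 47.3 and 44.3 FPKM in control, in the same order of media. By sequence, a read inside the identical stretch can come from either place, and how the authors' counting shared such reads out was not given in the sources used here.

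Turned into inferred reads with GENCODE lengths, H3-3A, H3P6 and H3P16 held 3736, 973 and 536 reads in glutamine deprivation. In glucose deprivation they held 3627, 1097 and 533 reads in replicate 1 and 3538, 1019 and 502 in replicate 2, and in control 4664, 1428 and 662 in replicate 1 and 6649, 1816 and 865 in replicate 2. Both copies thus took 28.8% of the reads of the 3 rows in glutamine deprivation, 31.0% and 30.1% in glucose deprivation and 31.0% and 28.7% in control, with no order by medium. These shares rest on 3146 exon bases for H3-3A, against 1308 in its transcript used here. With a shorter H3-3A length they would be larger. H3P6 and H3P16 fell with H3-3A, and like it lost these calls when scaled to the total (H3P6 -0.61 ± 0.07, limma adjusted p = 0.000328, in glutamine and -0.43 ± 0.06, adjusted p = 0.000571, in glucose deprivation). With the reads of both copies added to H3-3A, an alternative chosen after seeing the data, its log2 fold change was -0.48 ± 0.05 in glutamine (adjusted p = 0.000199) and -0.44 ± 0.04 in glucose deprivation (adjusted p = 9.43e-05).

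**Figure D3:**
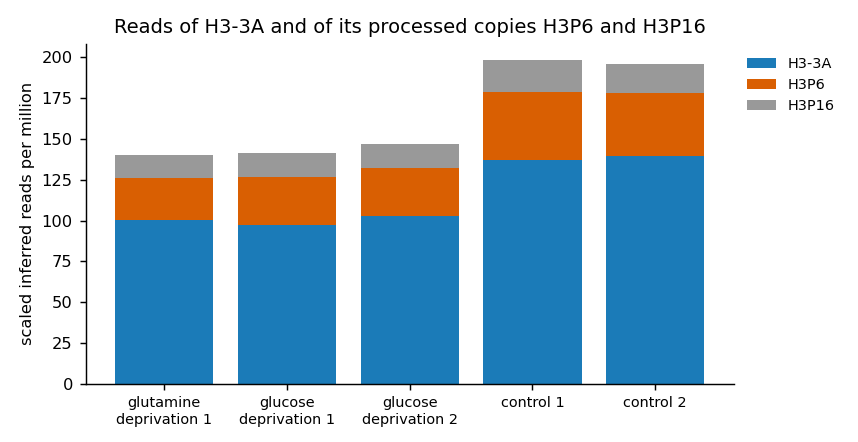
Inferred reads relative to library depth (y axis), divided by the scaling factor, of H3-3A and of its processed copies H3P6 and H3P16 (stacked bars from 0), in the library of glutamine deprivation, the 2 of glucose deprivation and the 2 of control. With GENCODE exon lengths the copies take 28.7% to 31.0% of each bar, and all deprived libraries are below both controls.

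Genes for H3.3 deposition moved in both directions. Of 9, 4 rose and 3 fell in glutamine deprivation (median log2 fold change 0.12), and 3 rose and 4 fell in glucose deprivation (median -0.04). Scaled to the total, 4 rose and 1 fell in glutamine (median 0.41), and 2 rose and 2 fell in glucose deprivation (median 0.07). Without that scaling, 24.8% of all genes tested rose and 26.3% fell in glutamine and 26.5% and 28.1% in glucose deprivation. HIRA, the chaperone that loads H3.3 at active genes, stood at 17.5 FPKM in glutamine deprivation, 11.9 and 11.9 FPKM in glucose deprivation and 13.3 and 14.1 FPKM in control. It rose in glutamine (0.33 ± 0.06, limma adjusted p = 0.00235), fell in glucose deprivation (-0.19 ± 0.05, adjusted p = 0.0126) and differed between them (0.52 ± 0.06, adjusted p = 0.000458). CABIN1 and UBN2, partners of HIRA, rose in both (CABIN1 0.52 and 0.14, UBN2 0.45 and 0.39, glutamine first). ATRX, which with DAXX loads H3.3 at telomeres and repeats, rose in glucose deprivation (0.55 ± 0.07, adjusted p = 0.000385) and was lower in glutamine than in glucose deprivation (-0.43 ± 0.08, adjusted p = 0.0047), while DAXX fell in glucose deprivation (-0.31). ASF1A and ASF1B, which hand H3 and H4 to other chaperones, fell in both, ASF1A more in glutamine (-0.85, against -0.54 in glucose deprivation) and ASF1B less (-0.35, against -0.69). DEK, an H3.3 chaperone, fell in glutamine deprivation (-0.47) and was lower there than in glucose deprivation (-0.43). Between the deprivations 4 of the 9 were higher and 3 lower in glutamine deprivation, against 3 higher and 0 lower when scaled to the total, where ATRX (-0.25, adjusted p = 0.389) and DEK (-0.23, adjusted p = 0.443) lost that call. The falls of DEK and ASF1B in glutamine and of HIRA and DAXX in glucose deprivation, and the rise of CABIN1 in glucose deprivation, were lost too.

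H2AX (chr11:119093854-119095467, minus strand), a single-exon gene whose mRNA can end in either a stem-loop or a poly(A) tail, was lower in glutamine deprivation alone. It stood at 88.2 FPKM in glutamine deprivation, at 112 and 132 FPKM in glucose deprivation and at 120 and 130 FPKM in control. Glucose deprivation overlapped control and glutamine deprivation lay under both. H2AX fell by 29.5% in glutamine deprivation (log2 fold change -0.50 ± 0.09, limma adjusted p = 0.00305) and was lower there than in glucose deprivation (-0.46 ± 0.09, adjusted p = 0.00567). In glucose deprivation, at 122 ± 13.95 FPKM against 125 ± 6.58 FPKM in control (SD, n = 2 each), no change was called (-0.04, 95% interval -0.22 to 0.14, adjusted p = 0.673). The call in glutamine deprivation was lost with scaling to the total (-0.18, adjusted p = 0.482), with all genes above 0 FPKM tested (adjusted p = 0.0996) and without control replicate 2 (-0.45, adjusted p = 0.0561). The difference between the deprivations was lost in 3 of 15 alternatives, among them scaling to the total (-0.25, adjusted p = 0.368).

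H2AX over H2AZ1 was 0.723 in glutamine deprivation, 0.781 and 0.871 in glucose deprivation and 0.560 and 0.596 in control. H2AX was thus nearer to H2AZ1 in all deprived libraries than in control. Of 12 genes for kinases, readers and other handlers of H2AX, 3 rose and 5 fell in either deprivation (median log2 fold change -0.11 in glutamine and -0.01 in glucose). Scaled to the total, 3 rose and 0 fell in glutamine (median 0.18), and 2 rose and 1 fell in glucose deprivation (median 0.09). Without that scaling, 24.8% of all genes tested rose and 26.3% fell in glutamine and 26.5% and 28.1% in glucose deprivation. MDC1, the adaptor that binds phosphorylated H2AX at breaks, stood at 22.0 FPKM in glutamine deprivation, 13.6 and 12.4 FPKM in glucose deprivation and 11.7 and 11.9 FPKM in control. MDC1 rose in glutamine deprivation (0.85 ± 0.06, limma adjusted p = 5.39e-05), where H2AX fell, and was not called in glucose deprivation (0.13, adjusted p = 0.0576). The kinase genes ATM and PRKDC rose in both (ATM 0.20 and 0.38, PRKDC 0.34 and 0.30, glutamine first), and ATR fell in glutamine deprivation (-0.25, but 0.02 when scaled to the total). RNF168, a ubiquitin ligase of the break response, fell in both (-0.55 and -0.59), as did SUPT16H, a subunit of the H2A-H2B chaperone FACT (-0.57 and -0.42). Scaled to the total, the calls of RNF168 in glutamine deprivation, PRKDC in glucose deprivation and SUPT16H in both were lost, and those of MDC1 and ATM were not.

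H1-10 (chr3:129314771-129316277, minus strand, a single exon) moved in opposite directions in the deprivations. It stood at 76.0 FPKM in glutamine deprivation, at 36.9 and 42.7 FPKM in glucose deprivation and at 57.3 and 56.5 FPKM in control. Glutamine deprivation was above and glucose deprivation below control, without overlap. H1-10 rose by 33.5% in glutamine (log2 fold change 0.41 ± 0.08, limma adjusted p = 0.00394) and fell by 30.04% in glucose deprivation (-0.51 ± 0.07, adjusted p = 0.000465; 39.8 ± 4.05 FPKM against 56.9 ± 0.528 FPKM in control, SD, n = 2 each). The direct comparison of glutamine with glucose deprivation gave 0.92 ± 0.08 (adjusted p = 0.000175), called in 15 of 15 alternatives at 0.82 to 1.12. The rise in glutamine deprivation was lost without control replicate 2 (0.40, adjusted p = 0.0575) and, as was the fall in glucose deprivation (adjusted p = 0.0516), when all genes above 0 FPKM were tested (adjusted p = 0.0956).

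H1-3, a linker histone of the replication-coupled clusters, was lower in both deprivations, at 96.3 FPKM in glutamine deprivation and 20.3 and 19.6 FPKM in glucose deprivation, against 255 and 229 FPKM in control. The antisense gene H1-10-AS1 (chr3:129315392-129326225, plus strand) overlaps H1-10 and held 233 inferred reads in glutamine deprivation, 119 and 108 in glucose deprivation and 92 and 163 in control, against at least 2072 for H1-10 in every library. Its scaled levels were low, at 1.82 FPKM in glutamine deprivation, 0.93 and 0.92 in glucose deprivation and 0.79 and 1.00 in control. It was called higher in glutamine deprivation than in control (0.58 ± 0.13, limma adjusted p = 0.00725) and than in glucose deprivation (0.55 ± 0.13, adjusted p = 0.0106). The strand setting of the counting is not given in the sources used here, so reads of both genes cannot be told apart where they overlap.

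The macroH2A genes differed little between media. MACROH2A1 (chr5:135333900-135399914, minus strand) stood at 12.02 FPKM in glutamine deprivation, at 12.9 and 12.8 FPKM in glucose deprivation and at 13.1 and 13.3 FPKM in control. The groups did not overlap, but were close. No change was called in glutamine (log2 fold change -0.13, 95% interval -0.24 to -0.02, limma adjusted p = 0.0517) or glucose deprivation (-0.04, -0.13 to 0.05, adjusted p = 0.453). MACROH2A2 (chr10:70052796-70112280, plus strand) stood at 24.4 FPKM in glutamine deprivation, at 27.4 and 26.3 FPKM in glucose deprivation and at 27.3 and 28.3 FPKM in control. It fell in glutamine deprivation (-0.18 ± 0.06, adjusted p = 0.031) and was not called in glucose deprivation (-0.05, 95% interval -0.16 to 0.06, adjusted p = 0.399), which overlapped control. That fall was lost in 8 of 15 alternatives, among them values as deposited, upper-quartile scaling, scaling to the total (0.12) and the fits without control replicate 1 (adjusted p = 0.088) or 2 (0.163). The value of MACROH2A1 in glutamine deprivation passed in 7 of 15, the lowest adjusted p being 0.0443. MACROH2A2 over MACROH2A1 was 2.03 in glutamine deprivation, 2.12 and 2.05 in glucose deprivation and 2.08 and 2.12 in control.

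**Figure D4:**
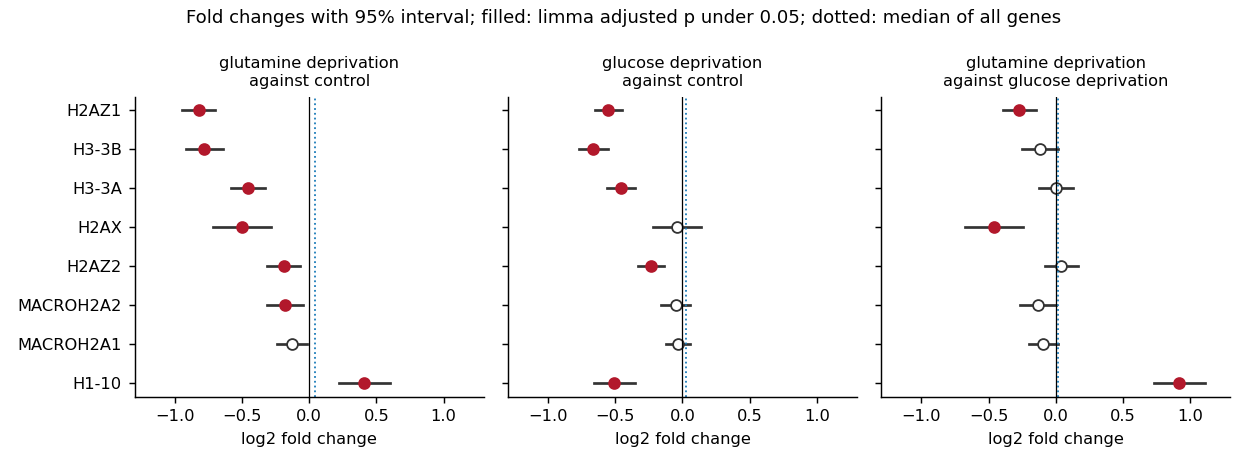
Log2 fold change (x axis) of each variant gene in the 3 comparisons, with 95% intervals as bars; filled points passed a limma adjusted p of 0.05, and the dotted line is the median of all genes. H2AZ1 and H3-3B lie farthest to the left in both comparisons with control, and H1-10 is on the right in glutamine and on the left in glucose deprivation.

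The variants were also set beside the replication-coupled histones. The 8 variant genes summed to 408 FPKM in glutamine deprivation, 418 and 455 FPKM in glucose deprivation and 558 and 571 FPKM in control. The 63 replication-coupled genes summed to 12150 FPKM in glutamine deprivation, 8545 and 9635 FPKM in glucose deprivation and 24426 and 23410 FPKM in control. Of the summed FPKM of these variant and replication-coupled genes the 8 variants were 3.25% in glutamine deprivation, 4.66% and 4.51% in glucose deprivation and 2.23% and 2.38% in control, so their share was higher in all deprived libraries although their sum was lower. The size of these percentages depends on the gene lengths the authors used and is therefore uncertain. Of the 50 replication-coupled genes tested, 47 fell in glutamine (median log2 fold change -0.99) and 48 in glucose deprivation (median -1.38), against medians of -0.32 and -0.34 for the variants. Among all genes tested 26.3% and 28.1% fell. Of 3 other replacement variant genes described here, CENPA, the centromeric H3 variant, stood at 7.65 FPKM in glutamine deprivation, 5.90 and 6.73 FPKM in glucose deprivation and 11.7 and 12.5 FPKM in control, lower in both (-0.60, adjusted p = 0.00119, and -0.84, adjusted p = 7.65e-05, by limma). H2AJ fell in glucose deprivation (-0.31), and H2AP, a low gene, rose there (0.87). Scaled to the total, the calls of CENPA in glutamine deprivation (-0.31, adjusted p = 0.133) and of H2AJ (-0.23, adjusted p = 0.192) were lost.

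Chaperones of the core histones were mostly lower, but not when libraries were scaled to their totals (median log2 fold change 0.10 in glutamine and -0.04 in glucose deprivation, with 1 rise and 0 falls in glutamine and 0 rises and 1 fall in glucose). Of 11, 1 rose and 7 fell in glutamine deprivation (median log2 fold change -0.21), and 1 rose and 6 fell in glucose deprivation (median -0.15). Among all genes tested 24.8% rose and 26.3% fell in glutamine and 26.5% and 28.1% in glucose deprivation. NCL, a nucleolar H2A-H2B chaperone, fell by 0.83 and 0.49 on the log2 scale in glutamine and glucose deprivation, SET by 0.63 and 0.32 and RBBP7 by 0.45 and 0.41, all calls that were lost when scaled to the total. NPM1 stood at 454 FPKM in glutamine deprivation, against 824 and 799 FPKM in glucose deprivation and 812 and 828 FPKM in control, and so, like H2AX, was lower in glutamine deprivation than in glucose deprivation (-0.84 ± 0.07, limma adjusted p = 0.000126). CHAF1A, the large subunit of the chaperone that assembles replicated DNA, fell in glucose deprivation (-0.53) and was higher in glutamine than in glucose deprivation (0.58). Of 10 genes that make or process replication-coupled histone mRNA, 1 rose and 5 fell in glutamine (median -0.16), and 4 rose and 5 fell in glucose deprivation (median -0.11); scaled to the total, 2 rose and 0 fell in glutamine (median 0.12), and 2 rose and 2 fell in glucose deprivation (median -0.01). SLBP, which binds the stem-loop, fell by 0.44 and 0.24 on the log2 scale in glutamine and glucose deprivation, but was not called in either when scaled to the total (-0.13 and -0.12). Other genes of this list changed more. Its log2 fold changes ran from -0.60 to 0.16 in glutamine and from -0.68 to 0.46 in glucose deprivation.

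**Figure D5:**
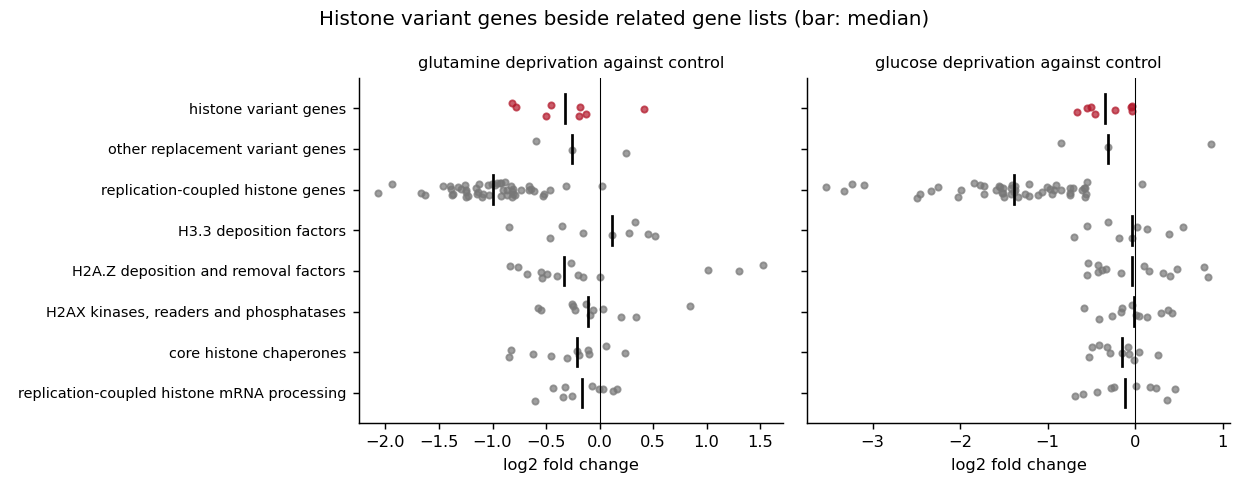
Log2 fold change (x axis) of the 8 variant genes and of the tested genes of 7 related lists, a row per list, in glutamine deprivation (left) and glucose deprivation (right) against control. Points are genes and bars are medians; the variants (medians -0.32 and -0.34) lie between the replication-coupled histones (-0.99 and -1.38) and 0.

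The proximal promoters were searched for letters that the variants have in common, and all 8 genes matched RefSeq starts on GRCh38.p14. Windows covered the 250 bases before a start, with 4 starts for H3-3A and 2 for MACROH2A1, and motifs were searched on both strands. TATAAA was found for H1-10, H2AX, H2AZ1 and H3-3B, 31 bases before the start in the first 3 and 29 in H3-3B, and for no other variant. Of 35116 RefSeq windows 10.7% hold it. This and the later shares are per window, whereas the variants are counted per gene, and H3-3A and MACROH2A1 have several windows. CCAAT occurred 4 times in H2AX, 3 times in H2AZ1, 4 times in H2AZ2 and 4 times in H3-3B, and 9.53% of windows hold at least 2. H2AX, H2AZ1 and H3-3B held both motifs, as 3.81% of windows do. MACROH2A1 held CCAAT 2 times in 1 of its 2 windows and not in the other. H3-3A held it at most once per window, and MACROH2A2 and H1-10 held none. CACGTG (6.34% of windows) and TGACGTCA (1.65%) were found for no variant, and TTTGAA (13.3%) for H2AX alone. The variants with TATAAA include the one that rose in glutamine deprivation as well as the 3 with the largest falls there. The 4 windows with TATAAA follow, all on the minus strand, with CCAAT and TATAAA (or their reverse complements) in capitals; the motifs do not overlap. These are descriptions of letters, not of bound sites.
H3-3B, chr17:75779780-75780029: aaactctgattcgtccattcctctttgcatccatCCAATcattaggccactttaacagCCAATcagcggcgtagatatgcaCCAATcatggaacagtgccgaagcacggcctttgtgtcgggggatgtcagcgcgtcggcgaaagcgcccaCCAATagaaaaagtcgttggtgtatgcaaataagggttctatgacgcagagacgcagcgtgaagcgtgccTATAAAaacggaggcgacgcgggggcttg
H2AZ1, chr4:99950276-99950525: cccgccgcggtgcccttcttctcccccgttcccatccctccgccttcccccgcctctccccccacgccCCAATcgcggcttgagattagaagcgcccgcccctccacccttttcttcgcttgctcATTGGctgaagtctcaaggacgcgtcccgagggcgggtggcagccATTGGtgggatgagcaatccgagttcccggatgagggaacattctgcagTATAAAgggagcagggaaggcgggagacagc
H2AX, chr11:119095466-119095715: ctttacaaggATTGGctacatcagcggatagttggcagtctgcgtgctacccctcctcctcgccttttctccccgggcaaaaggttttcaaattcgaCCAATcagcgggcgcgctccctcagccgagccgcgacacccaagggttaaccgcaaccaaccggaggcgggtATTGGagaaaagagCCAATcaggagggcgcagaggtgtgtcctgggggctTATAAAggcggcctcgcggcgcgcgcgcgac
H1-10, chr3:129316287-129316536: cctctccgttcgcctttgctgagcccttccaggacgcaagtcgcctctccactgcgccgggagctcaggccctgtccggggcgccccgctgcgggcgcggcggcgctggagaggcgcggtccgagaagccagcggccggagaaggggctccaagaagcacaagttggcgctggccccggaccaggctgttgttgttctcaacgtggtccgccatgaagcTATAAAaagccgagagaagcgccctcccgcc

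For each variant the 2 genes of most similar pattern were taken among all genes tested outside the lists, by Euclidean distance of log2 levels relative to the control mean over the 5 libraries. PSMC3 (distance 0.0690) and PSMC1 (0.0724), which encode ATPases of the proteasome cap, were nearest to H2AZ1. PSMC3 stood at 41.9 FPKM in glutamine deprivation, 47.5 and 50.1 FPKM in glucose deprivation and 71.4 and 71.4 FPKM in control. GINS1 (0.0598), a subunit of the replicative helicase, and UBE2N (0.0650), a ubiquitin-conjugating enzyme, were nearest to H3-3B. EFHD1 (0.0551) and SH3BP1 (0.0817) were nearest to H1-10, with EFHD1 at 6.89 FPKM in glutamine deprivation, 2.92 and 3.61 FPKM in glucose deprivation and 5.09 and 4.80 FPKM in control. The nearest genes to the others were OSTN and AC115618.3 for H2AX, SRRD and AC034102.2 for H3-3A, EFR3A and MBNL1 for H2AZ2, P4HA2 and LSM8 for MACROH2A1, and FBXO22 and MSANTD3 for MACROH2A2. Such nearness over 5 libraries is a description and carries no test.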

How the data were processed

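Per the labels' protocols, total RNA of 95D cells was depleted of ribosomal RNA and read in pairs of 150 bases. Per the submitters' processing notes the authors used HISAT2 2.0.5 and StringTie with hg38; neither annotation, StringTie version nor strand setting is given in the sources used here. FPKM is the unit assumed for the deposited values. The headers are silent on it; the values are fractional, and among single-exon genes with 1 to 20 reads (4120 to 4513 a library) 95.1% to 95.8% fell on whole reads within 0.05 reads, from which the depths were inferred. Multi-exon lengths from GENCODE release 29 fitted less well, which limits comparisons of levels between genes.

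Of 6 labelled libraries 5 were used. The glutamine table has 1 column headed as glucose deprivation; its sample could not be told and it was left out. A combined table was not used.

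FPKM were divided by trimmed-mean factors (1.08 for glutamine deprivation, 1.01 and 0.979 for glucose deprivation, 0.960 and 0.971 for control; 30% of ratios and 5% of abundances trimmed at each end). Genes that reached 1 FPKM in any library, 16600 in all, were log2-transformed after adding 1 and fitted with limma 3.58.1 (R 4.3.3), with a coefficient per medium over all 5 libraries, 2 residual degrees of freedom and variances moderated over a trend on inferred reads. Fold changes are on that scale, which understates changes of low genes. For the single library of glutamine deprivation the spread of the other media is assumed. Tests were two-sided, with Benjamini-Hochberg adjustment over all genes tested and a threshold of 0.05. Percent changes are ratios of group means. The fit was checked on simulated data. There the share of false calls stayed under the threshold of 0.05 in both comparisons with control and exceeded it between the deprivations. The simulation gave all libraries the same spread and changed few genes. It therefore cannot show the share of false calls in these data, least of all for the single glutamine-deprived library. Inferred reads are FPKM times exon length times depth.

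The 8 genes and the lists were chosen with earlier results of these data known. Named genes of a list were taken from the up to 5 past the threshold with the largest changes in a comparison, and not all of these are named. For each variant the 2 genes nearest in pattern were named. The report names markers and copies besides. Coding sequences are from GENCODE and promoters from RefSeq; no protein sequence was used here. For 1 gene of these lists results are not reported here.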

Additional observations from a re-analysis of the deposited data

How the results depend on the processing

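Each log2 fold change of the 8 genes was recomputed under 15 to 17 alternatives in scaling, pseudocount, filter, variance model, replicate block and libraries used. Of 371 values, 309 kept their direction and their side of the threshold, 29 lost the call, 9 gained it and 24 changed direction; of those 24 none passed the threshold, and 2 were of called values. Without each library in turn, the genes called ranged from 5692 to 9088 in glucose and 5495 to 8427 in glutamine deprivation against control, lowest without a control replicate, and the variants called from 3 to 8 in glutamine deprivation. Scaling to the total gave 6198 genes (36.6%) in glutamine, 5500 (32.5%) in glucose and 4270 (25.2%) between the deprivations, and 2, 3 and 1 of the 8 variants. Testing all genes above 0 FPKM gave 4 of 8 variants and 21.9% of all genes in glutamine deprivation.

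Values whose direction changed were as follows, in log2. With values as deposited they were H2AX 0.0028 and MACROH2A1 0.0046 in glucose, MACROH2A1 0.022 in glutamine deprivation, and H3-3A 0.11 and MACROH2A1 0.017 between the deprivations. With upper-quartile scaling they were H2AX 0.051, MACROH2A1 0.050 and MACROH2A2 0.040 in glucose, MACROH2A1 0.034 in glutamine deprivation and H3-3A 0.080 between the deprivations. With scaling to the total they were H2AX 0.071, MACROH2A1 0.069 and MACROH2A2 0.059 in glucose, H2AZ2 0.11, MACROH2A1 0.17 and MACROH2A2 0.12 in glutamine deprivation, and H3-3A 0.20, H3-3B 0.083, MACROH2A1 0.097 and MACROH2A2 0.065 between them. Without 1 library, H2AX ranged from -0.16 to 0.075 in glucose deprivation and H3-3A from -0.038 to 0.037 between the deprivations. The cause of these shifts was not tested. Values as deposited and upper-quartile scaling moved the median of all genes in glutamine deprivation to 0.17 and 0.18, with 67.5% and 68.2% of calls higher against 48.5%, and in glucose deprivation to 0.06 and 0.10, with 54.3% and 60.0% higher against 48.6%. Between the deprivations they gave 0.11 and 0.08, with 68.2% and 62.5% higher against 50.5%.

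No deviation shared by replicate number was seen: differences of replicate 1 minus replicate 2 in control and in glucose deprivation had r = -0.02 over 16600 genes. With 2 libraries in each of these media, and with glutamine deprivation left out, this cannot show whether the numbers pair cultures. With the number as a replicate block, 5 variants were called in glutamine deprivation against 7 without it, since H2AZ2 (adjusted p = 0.0695) and MACROH2A2 (0.0766) were lost, and H3-3A between the deprivations was 0.026. The block gave 7516 genes called (45.3%) in glutamine and 8794 (53.0%) in glucose deprivation and 6308 (38.0%) between them. Leaving out the only glutamine-deprived library gives no value for its comparisons. At 1 library of glutamine deprivation the spread of that medium is unmeasured, and the SEs of the variants there, 0.05 to 0.09, borrow it from the other media.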
